A study of Rattus norvegicus with 12 samples.

Results

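Proteasome subunit genes were followed in rat fetal testis across 3 generations of a vinclozolin lineage and a control lineage. A probe set, the group of short probes that an array uses to read 1 transcript, was taken as a member where its single annotated symbol was Psma, Psmb, Psmc, Psmd or Psme followed by a number, with symbols ending in -ps left out. This gave 53 probe sets of 39 genes among the 31042 probe sets that were not array controls. All 39 genes were found by identifier in a current rat gene table, and 0 of them had changed symbol. The members fell into 7 alpha ring genes, 6 constitutive beta ring genes, 3 inducible beta genes, 6 base ATPases, 3 other base subunits, 8 lid subunits, 3 base assembly chaperones and 3 activators. Of the 53 probe sets, 49 passed the filter on dim probe sets and were tested, and they covered all 39 genes. The 4 that were left out were a dim probe set each of Psmc4 and Psmd11 and a pair of dim probe sets of Psmb5. They read 0.7 to 36.5 signal units over the 12 arrays. Another 6 probe sets carried several symbols each, so Psmb6, the caspase-like catalytic subunit, and the activator Psme3 were not analysed here. The testis form of an alpha subunit, Psma8, had no member probe set.

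The proteasome is the large protease that cuts up most short-lived and damaged proteins of the cytosol and nucleus, after they have been tagged with ubiquitin. Its core particle is a barrel of stacked rings, in which outer alpha rings gate the entrance and inner beta rings hold the catalytic sites. A regulatory particle caps the barrel: the base unfolds substrates with a ring of ATPases, and the lid removes the ubiquitin chains. Interferon replaces the catalytic beta subunits with inducible forms that favour peptides for antigen presentation, and separate activators can bind the barrel in place of the regulatory particle. In the testis a further set of forms, Psma8 and Psme4 among them, serves the loss of histones in developing sperm, which begins long after the fetal stage studied here. Subunits are made in matched amounts, and in mammals the transcription factor Nfe2l1 raises their genes together when proteasome activity runs short.

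The 12 Affymetrix arrays, 2 for each of 6 groups, measured total testis RNA from fetuses of embryonic day 16. In the F1 vinclozolin group the fetuses' own mothers had been injected intraperitoneally with vinclozolin at 100 mg/kg/day from day 8 to day 14 of pregnancy. Vinclozolin is a fungicide, and its breakdown products are antagonists of androgen receptor signalling. The F2 vinclozolin and F3 vinclozolin groups were descended by 1 and 2 further matings, with no later dosing. The F1, F2 and F3 control groups had the same pedigree steps after injection of the sesame oil and DMSO vehicle over the same days. The protocol text of the F2 and F3 vinclozolin samples describes the mated F1 animals as coming from control lines, so the groups rest on the sample titles. No strain, litter or hybridisation batch was given. Each RNA came from about 10 pooled testes, and nothing said that the pools of 1 group came from separate litters, so p-values measure the spread between pools, which may be technical. In bulk tissue fewer cells of a type and less RNA per cell cannot be told apart.

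A measure of RNA quality differed between the lineages. The 5' over 3' signal ratio of the beta-actin control, which falls when RNA is degraded or its copy is short, was 0.192 and 0.149 on the F1 vinclozolin arrays, 0.246 and 0.219 on the F2 vinclozolin arrays and 0.395 and 0.360 on the F3 vinclozolin arrays, against 0.423 to 0.471 on the 6 control arrays. The same ratio of the Gapdh control was 0.651 to 0.800 on the F1 and F2 vinclozolin arrays. On the F3 vinclozolin arrays it was 1.023 and 0.970, beside 0.959 to 1.022 on the control arrays. Array medians were 40.5 to 42.8 signal units in vinclozolin arrays and 44.5 to 47.1 in control arrays. The second F1 vinclozolin array stood apart within its group: the median member lay 0.29 log2 units above the mean of the 6 control arrays there and 0.09 above it on the first. Testis identity was checked on Amh of Sertoli cells, with a median of 2703.5 signal units in vinclozolin arrays and 3078.2 in control arrays, and on Insl3 of Leydig cells, with medians of 1304.3 and 1062.3 in vinclozolin and control arrays. The lists were mixed in direction. In F1, 1 of 10 Sertoli probe sets rose and 4 fell, among them 1 each of Wt1, Gata4 (by 1.05) and Cldn11 (by 0.95). The brighter probe sets of these genes were uncalled in F1, with -0.11 for Wt1, -0.08 for Gata4 and 0.20 for Cldn11. That of Cldn11 was called higher in the mean, by 0.17. Of 9 fetal Leydig probe sets, 2 rose and 3 fell in F1, among them both of Lhcgr (by 1.42 and 0.41). Of all probe sets tested, 9.41% were called higher and 13.7% lower in F1. In the mean 2 rose and 4 fell for Sertoli cells, and 5 rose and 2 fell for Leydig cells. The shares of all were 14.1% higher and 19.2% lower there. Other cell types moved with lineage too. The summed signal of 9 erythroid probe sets was 7946.6 to 11025.0 in vinclozolin arrays and 6167.3 to 7034.7 in control arrays, and that of 2 prostate secretion probe sets was 447.1 and 536.2 in F3 vinclozolin arrays against 3.3 and 4.6 in F3 control arrays. Kit, the receptor carried by fetal germ cells and some Leydig cells, fell by 1.86 on the log2 scale in F1. Of the 8 germ cell markers listed, the other with a probe set of its own here was Nanos3, which was not called, with 0.14 in F1, 0.12 in F2 and 0.38 in F3. The part of these differences in the proteasome results was not tested, other than by the fit with the actin ratio given below.

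Proteasome subunits were mostly higher in the vinclozolin lineage, by small amounts. In the mean of the 3 generations the median difference was 0.24 log2 units for core particle probe sets and 0.05 for base and lid probe sets. Averaged over the 3 generations, 22 of the 49 tested probe sets rose (44.9%) and 2 fell (4.08%), against 14.1% higher and 19.2% lower among all 21729 probe sets tested. A call means an adjusted p under 0.05 in limma with Benjamini-Hochberg adjustment over all of these. The median member differed by 0.16 log2 units, and the median of all probe sets by -0.0086. In F1, 15 members rose (30.6%) and 1 fell (2.04%), where 9.41% and 13.7% of all probe sets were called higher and lower, and the median member differed by 0.18. In F2, 4 rose (8.16%) and 1 fell, beside 4.7% and 9.65% of all, with a member median of 0.09. In F3, 1 rose (2.04%) and 0 fell, beside 1.05% and 2.06% of all, with a member median of 0.15. In F2 and F3 the shares of members called higher rested on 4 and 1 calls, so a difference from the background cannot be read from them. The sign did not depend on calls: 27 of 49 members (55.1%) were above 0 in every generation, against 23.3% of all probe sets. Another 3 (6.12%) were below 0 in every generation, against 26.7% of all. The sizes depended on scaling. After quantile normalization the member median was 0.11 in F1, 0.04 in F2 and 0.10 in F3, beside 0.04, 0.03 and 0.01 of all. The base and lid median in the mean was then 0.0057, beside 0.03 of all.

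The 6 vinclozolin arrays lay wholly above the 6 control arrays for 14 members (28.6%) and wholly below them for 0, where 5.52% and 7.73% of all probe sets did so. The 14 were Psma4, Psma6, Psma7, Psmb1, Psmb4, Psmb5, Psmb7, Psmb10, Psmc2, Psmd4, Psmd7, Psmd10, Psmd13 and Psme2. Within generations both vinclozolin arrays lay above both control arrays for 28 members in F1, 23 in F2 and 30 in F3, beside 27.8%, 27.6% and 25.8% of all probe sets. They lay below for 4 members in F1, 9 in F2 and 7 in F3, beside 30.6%, 30.4% and 29.7% of all. With 2 arrays against 2 the smallest p an exact permutation test allows is 0.333, and the calls rest on the spread shared across all 12 arrays. The F1 count of 15 depended on single arrays, and so did the count over all probe sets. The median member difference in F1 was 0.09 without the second F1 vinclozolin array and 0.30 without the first. It was 0.20 and 0.17 without the first and second F1 control array, against 0.18 with all arrays. With the actin ratio as a covariate 0 members were called in any generation or in the mean, and the same fit called 0 of all probe sets in F1, F2 and the mean.

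**Figure D1:**
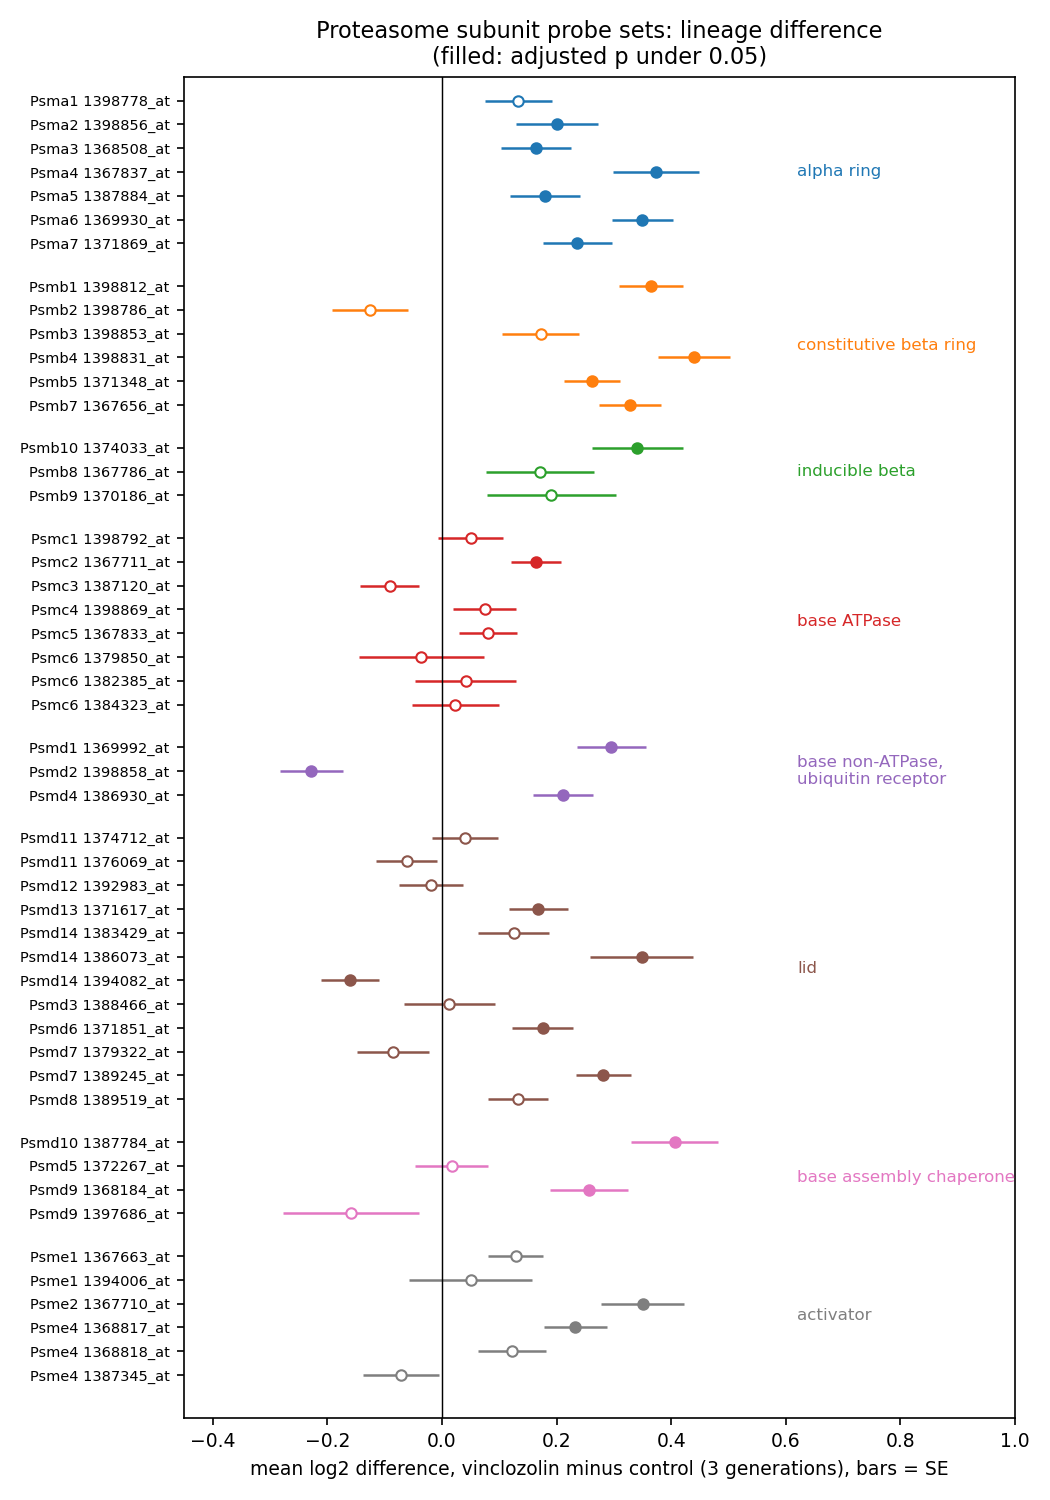
Mean of the 3 vinclozolin minus control differences (log2 units, bars are standard errors) for the 49 tested probe sets, grouped and coloured by subunit class; filled points have an adjusted p under 0.05. The alpha ring lies wholly to the right of 0, and the filled points left of 0 are Psmd2 and 1 probe set of Psmd14.

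All 7 alpha ring genes, which form the outer rings and the gate of the core particle, were higher in the mean, and 6 of them were called. Psma4, whose tail takes part in closing the gate, had 985.5 and 1471.9 signal units in F1 vinclozolin, against 784.1 and 797.3 in F1 control testes. In F2 it had 1016.7 and 1058.7 in vinclozolin and 850.3 and 846.6 in control testes, and in F3 983.6 and 1053.1 in vinclozolin and 846.5 and 872.2 in control testes. Every vinclozolin array was above every control array. The difference was 0.60 ± 0.13 (SE) in F1 (limma adjusted p = 0.00401) and 0.37 ± 0.08 in the mean, a 1.30-fold level (limma adjusted p = 0.00141). Psma6 had 3270.5 and 3976.6 in F1 vinclozolin against 2544.1 and 2692.5 in F1 control, 3468.7 and 3067.7 in F2 vinclozolin against 2707.7 and 2663.7 in F2 control, and 3045.4 and 3270.4 in F3 vinclozolin against 2549.9 and 2532.7 in F3 control testes. Its groups did not overlap, with 0.46 ± 0.09 in F1 (limma adjusted p = 0.00251) and 0.35 ± 0.05 in the mean (limma adjusted p = 0.000172). Psma7 rose by 0.41 in F1, and Psma2, Psma3, Psma5 and Psma7 rose by 0.16 to 0.24 in the mean. Psma1 was not called, with 0.13 ± 0.06 in the mean. In F2 and F3 all 7 differences were positive, with medians of 0.10 and 0.25, and 0 were called.

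The constitutive beta ring carried the member with the largest difference. Psmb4, a structural subunit needed to lock the rings together, rose by 0.44 ± 0.06 in the mean, 1.36-fold (limma adjusted p = 9.25e-05), and by 0.61 ± 0.11 in F1 (limma adjusted p = 0.000988). It had 2776.5 and 3788.8 signal units in F1 vinclozolin against 2127.9 and 2104.4 in F1 control, 2731.1 and 2787.3 in F2 vinclozolin against 2208.8 and 2283.1 in F2 control, and 2678.4 and 2918.7 in F3 vinclozolin against 2101.4 and 2088.5 in F3 control testes. The lowest vinclozolin array was above the highest control array, and the second F1 vinclozolin array was the highest of all. Psmb1, another structural subunit, had 2289.9 and 2836.0 in F1 vinclozolin against 1853.1 and 1946.8 in F1 control, 2430.2 and 2749.7 in F2 vinclozolin against 1928.1 and 1962.2 in F2 control, and 2218.0 and 2389.7 in F3 vinclozolin against 1893.5 and 1932.0 in F3 control testes. It rose in F1 by 0.42 and in F2 by 0.41 ± 0.10 (limma adjusted p = 0.0118). Its groups did not overlap in any generation, and the mean difference was 0.36 ± 0.06.

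Of the catalytic subunits, Psmb7 (trypsin-like activity) and Psmb5 (chymotrypsin-like activity, the site that bortezomib blocks) were both higher. Psmb7 had 2194.5 and 2615.2 signal units in F1 vinclozolin against 1792.6 and 1623.5 in F1 control, 2144.0 and 2185.1 in F2 vinclozolin against 1770.4 and 1911.7 in F2 control, and 2067.2 and 2306.4 in F3 vinclozolin against 1787.3 and 1844.3 in F3 control testes. It rose by 0.49 ± 0.09 in F1 (limma adjusted p = 0.00179) and by 0.33 ± 0.05 in the mean. Psmb5 was the only member called in F3. It had 2114.9 and 2209.9 in F3 vinclozolin, against 1625.5 and 1635.2 in F3 control testes, a difference of 0.40 ± 0.09 (limma adjusted p = 0.0211). In F1 it had 1897.8 and 2202.9 in vinclozolin against 1831.1 and 1748.6 in control testes, and in F2 1991.8 and 2051.0 in vinclozolin against 1682.8 and 1856.2 in control testes. The groups were apart in all 3 generations, at 0.19 ± 0.09 in F1 and in F2, where it was not called. The F3 call was lost without any 1 of the 4 F3 arrays. The F1 vinclozolin group had the widest spread between arrays (pooled SD 0.244 log2 units, against 0.130 to 0.203 in the other groups). Without either of its arrays more members were called higher in F3, and so were more of all probe sets. The F3 member median stayed at 0.15 in those fits. Psmb3 rose by 0.35 in F1 and had 0.17 ± 0.07 in the mean. Psmb2 went the other way, uncalled, at -0.13 ± 0.07 in the mean and below 0 in every generation.

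Promoters were searched because Nfe2l1 and the related Nfe2l2 act on proteasome genes through antioxidant response elements, and interferon acts on the inducible genes. The windows, from RefSeq on build GRCr8, run from 250 bases before to 50 after each gene's start, and 35 of the 39 genes had one. The core of the antioxidant response element, TGACNNNGC on either strand, was found in 7 of 35 windows (20.0%), those of Psma3, Psmb2, Psmb5, Psmd1, Psmd3, Psmd9 and Psme4, and in 12.1% of all 33469 promoters of that length. The core of the interferon-stimulated response element, GAAA repeated after 2 bases of any kind, on either strand, was found in 6 of 35 (17.1%), those of Psma4, Psmb3, Psmb8, Psmb10, Psmd7 and Psme2, and in 3.92% of all. No member window held both, so matches of the 2 motifs did not overlap. Such matches describe letters and not binding. The promoter of Psmb5, called in F3, and that of Psmd1, whose difference changed with generation, are given with the TGACNNNGC match in capitals. The first lies at chr15:32047330-32047629 on the minus strand and the second at chr9:94157721-94158020 on the plus strand.
Psmb5: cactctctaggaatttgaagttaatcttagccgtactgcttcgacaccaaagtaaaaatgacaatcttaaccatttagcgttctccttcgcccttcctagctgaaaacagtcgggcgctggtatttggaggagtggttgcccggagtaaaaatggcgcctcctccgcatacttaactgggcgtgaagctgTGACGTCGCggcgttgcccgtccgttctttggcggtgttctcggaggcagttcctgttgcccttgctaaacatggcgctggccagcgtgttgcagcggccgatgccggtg
Psmd1: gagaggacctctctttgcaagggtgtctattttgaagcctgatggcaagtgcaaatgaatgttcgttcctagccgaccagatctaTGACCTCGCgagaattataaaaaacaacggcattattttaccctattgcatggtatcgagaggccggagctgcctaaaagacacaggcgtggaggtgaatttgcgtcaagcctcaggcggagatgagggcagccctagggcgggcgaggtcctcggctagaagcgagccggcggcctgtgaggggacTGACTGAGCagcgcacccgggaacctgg
The Psmb5 match starts 60 bases before the start, and those of Psmd1 165 bases before it and 22 bases after it.

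Of the 3 inducible beta subunits, 1 was called higher in the mean and the other two were not called. Psmb10, which takes the place of Psmb7, had 104.0 and 135.9 signal units in F1 vinclozolin against 87.5 and 86.2 in F1 control, 120.2 and 133.5 in F2 vinclozolin against 98.7 and 101.4 in F2 control, and 112.7 and 135.4 in F3 vinclozolin against 95.9 and 93.9 in F3 control testes. The groups did not overlap, and the mean difference was 0.34 ± 0.08, 1.27-fold (limma adjusted p = 0.00391). Psmb8, which replaces Psmb5, read 35.2 to 55.7 in vinclozolin and 38.8 to 51.0 in control arrays, and Psmb9, which replaces Psmb6, read 20.4 to 41.0 in vinclozolin and 17.9 to 36.1 in control arrays. Both overlapped, with 0.17 ± 0.09 and 0.19 ± 0.11 in the mean. Psmb8 was called higher in the mean after quantile normalization or median centring (0.27 in each).

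The base ATPases, the ring that unfolds substrates and feeds them into the core, had a median of 0.05 in the mean, the lowest of the 8 classes. In F1 all 8 probe sets of the 6 genes were above 0, with a median of 0.20, and 2 were called. In F2 6 of 8 were below 0, with a median of -0.09, and in F3 the median was 0.02, with 0 called in both. Psmc2 alone rose in the mean, by 0.16 ± 0.04 (limma adjusted p = 0.0096). It had 2420.2 and 2735.0 signal units in F1 vinclozolin against 2143.2 and 2100.3 in F1 control, 2274.7 and 2322.1 in F2 vinclozolin against 2146.7 and 2231.5 in F2 control, and 2371.8 and 2421.4 in F3 vinclozolin against 2153.2 and 2172.8 in F3 control testes, apart in every generation. Psmc1, Psmc3, Psmc4 and Psmc5 had mean differences of -0.09 to 0.08. Psmc6 was read by 3 probe sets, of which 1379850_at was called in F1, at 0.58 ± 0.19 (limma adjusted p = 0.0386). It had 488.2 and 817.1 in F1 vinclozolin against 425.2 and 411.3 in F1 control, but 343.1 and 232.5 in F2 vinclozolin against 442.8 and 419.4 in F2 control testes. F3 gave 430.7 and 486.5 in vinclozolin and 521.0 and 468.4 in control testes, which overlapped. The second F1 vinclozolin array made much of the F1 value: without it the difference was 0.22 and was not called. All 3 probe sets were positive in F1 (0.18 to 0.58) and negative in F2 (-0.58 to -0.12).

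The large base subunits Psmd1 and Psmd2, scaffolds of the regulatory particle on which ubiquitin-binding proteins dock, were called in opposite directions in the mean. Psmd1 had 522.5 and 510.9 signal units in F1 vinclozolin against 359.3 and 338.3 in F1 control, and 497.5 and 535.2 in F2 vinclozolin against 349.7 and 370.2 in F2 control testes. In F3 it had 300.2 and 370.0 in vinclozolin against 360.0 and 389.5 in control testes. Vinclozolin arrays were thus clear above control arrays in F1 and F2, and the groups overlapped in F3. The differences were 0.55 ± 0.11 in F1 (limma adjusted p = 0.00175), 0.50 ± 0.11 in F2 (limma adjusted p = 0.00552) and -0.16 ± 0.11 in F3, and 0.30 ± 0.06 in the mean (limma adjusted p = 0.00166). Psmd2 had 1197.6 and 1158.5 in F1 vinclozolin against 1204.3 and 1378.0 in F1 control, 1112.7 and 1275.7 in F2 vinclozolin against 1446.7 and 1513.7 in F2 control, and 1308.7 and 1141.0 in F3 vinclozolin against 1447.1 and 1461.4 in F3 control testes. It was lower in each generation, and fell by 0.31 on the log2 scale in F2 (limma adjusted p = 0.0421) and by 0.23 in the mean (limma adjusted p = 0.00509). After median centring it was called in neither, at -0.19 and -0.13. Psmd4, the ubiquitin receptor of the base, rose by 0.29 ± 0.09 in F1 and by 0.21 ± 0.05 in the mean, with 799.2 to 989.9 in vinclozolin and 695.0 to 746.4 in control arrays.

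Among the 8 lid genes, 4 of 12 probe sets rose and 1 fell in the mean, beside 14.1% and 19.2% of all. The lid median was 0.08. Psmd7, the partner of the deubiquitinase, rose in F1 by 0.43 ± 0.08, in F2 by 0.28 ± 0.08 (limma adjusted p = 0.0364) and in the mean by 0.28 at probe set 1389245_at. It had 705.8 and 670.2 signal units in F1 vinclozolin against 498.5 and 511.5 in F1 control, 632.7 and 669.6 in F2 vinclozolin against 530.4 and 537.9 in F2 control, and 586.7 and 610.9 in F3 vinclozolin against 554.0 and 535.4 in F3 control testes. These groups did not overlap, while its other probe set, 1379322_at, was below 0 in each generation and uncalled. Psmd13 and Psmd6 rose in the mean by 0.17 and 0.18. Psmd3, Psmd8, Psmd11 and Psmd12 were not called.

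Psmd14, the deubiquitinase that clips ubiquitin chains off the substrate, was the only gene whose probe sets were called in opposite directions. Probe set 1394082_at had 447.2 and 439.0 signal units in F1 vinclozolin against 627.3 and 576.2 in F1 control testes, a difference of -0.43 ± 0.09 (limma adjusted p = 0.00275). It had 527.0 and 482.2 in F2 vinclozolin against 591.0 and 609.7 in F2 control, but 636.8 and 660.6 in F3 vinclozolin against 580.4 and 553.8 in F3 control testes. The groups were apart in all 3 generations, with vinclozolin below control in F1 and F2 and above it in F3. Probe set 1386073_at had 114.9 and 178.2 in F1 vinclozolin against 101.7 and 124.6 in F1 control, 153.2 and 140.6 in F2 vinclozolin against 123.4 and 126.8 in F2 control, and 189.3 and 192.7 in F3 vinclozolin against 127.3 on both F3 control arrays. It rose by 0.35 ± 0.09 in the mean (limma adjusted p = 0.00781), while 1394082_at fell by 0.16 (limma adjusted p = 0.0232). The third, 1383429_at, read 920.7 to 1307.6 in vinclozolin and 890.0 to 1052.9 in control arrays, with 0.12 ± 0.06 in the mean. No single direction can be given for the gene. The call of 1394082_at in the mean was lost with median centring (-0.07), and without the second F2 or first F3 vinclozolin array or the first F1, second F2 or first F3 control array (-0.15 to -0.14).

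The base assembly chaperones are not part of the finished particle and hold the ATPases while the base is built. Psmd10, also known as gankyrin, had 249.9 and 286.0 signal units in F1 vinclozolin against 214.6 and 181.2 in F1 control, 257.9 and 240.7 in F2 vinclozolin against 180.4 and 204.2 in F2 control, and 228.3 and 300.0 in F3 vinclozolin against 185.2 and 187.5 in F3 control testes. No vinclozolin array overlapped the control arrays. The mean difference of 0.41 ± 0.08 was 1.33-fold (limma adjusted p = 0.00087), and the differences of 0.41 in F1, 0.35 in F2 and 0.46 in F3 were close to each other. Psmd9 rose by 0.26 ± 0.07 in the mean at 1368184_at, and its dim second probe set, at 15.7 to 37.7, was not called. Psmd5 had 0.02 ± 0.06.

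Of the activators, Psme2 and 1 of 3 probe sets of Psme4 rose in the mean. Psme2, which forms the interferon-inducible activator ring together with Psme1, had 1144.7 and 1630.2 signal units in F1 vinclozolin against 1046.5 and 1033.2 in F1 control, 1345.9 and 1321.9 in F2 vinclozolin against 1013.4 and 1095.3 in F2 control, and 1250.7 and 1448.6 in F3 vinclozolin against 1049.4 and 1091.7 in F3 control testes. The groups did not overlap, and the difference was 0.35 ± 0.07 in the mean (limma adjusted p = 0.00175) with 0.39, 0.34 and 0.33 in F1, F2 and F3. Its partner Psme1 had 1691.5 to 2099.2 in vinclozolin and 1593.6 to 1811.9 in control arrays, and at 0.13 ± 0.05 in the mean just missed the threshold (limma adjusted p = 0.0505). It was called with the lowest 50% of probe sets left out, with median centring and with array weights. Psme4, an activator that acts on acetylated histones in sperm development, rose in F2 by 0.32 ± 0.10 (limma adjusted p = 0.0375) and in the mean by 0.23 at 1368817_at. That probe set had 538.6 and 599.4 in F2 vinclozolin, against 454.3 and 452.0 in F2 control testes. Its other probe sets gave 0.12 ± 0.06 and -0.07 ± 0.07 in the mean and were not called.

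The windows of Psme2 and Psmb10, the interferon-inducible members that were called, are given with each match to the interferon element in capitals. Psme2 lies at chr15:33052702-33053001 and Psmb10 at chr19:50743243-50743542, both on the minus strand of GRCr8, from RefSeq.
Psme2: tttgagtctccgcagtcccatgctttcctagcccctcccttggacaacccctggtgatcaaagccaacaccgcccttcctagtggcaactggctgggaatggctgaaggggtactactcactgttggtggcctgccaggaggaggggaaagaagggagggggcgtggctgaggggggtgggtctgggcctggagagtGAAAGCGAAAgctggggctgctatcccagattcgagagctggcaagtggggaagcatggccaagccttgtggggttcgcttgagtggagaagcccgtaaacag
Psmb10: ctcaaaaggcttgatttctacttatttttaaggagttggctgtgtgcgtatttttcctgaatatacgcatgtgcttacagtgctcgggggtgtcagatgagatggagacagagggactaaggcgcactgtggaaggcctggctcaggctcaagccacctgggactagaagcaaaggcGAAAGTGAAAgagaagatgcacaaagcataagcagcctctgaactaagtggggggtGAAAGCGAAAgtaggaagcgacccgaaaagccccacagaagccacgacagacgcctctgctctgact
The Psme2 match starts 53 bases before the start, and those of Psmb10 start 73 and 17 bases before it.

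**Figure D2:**
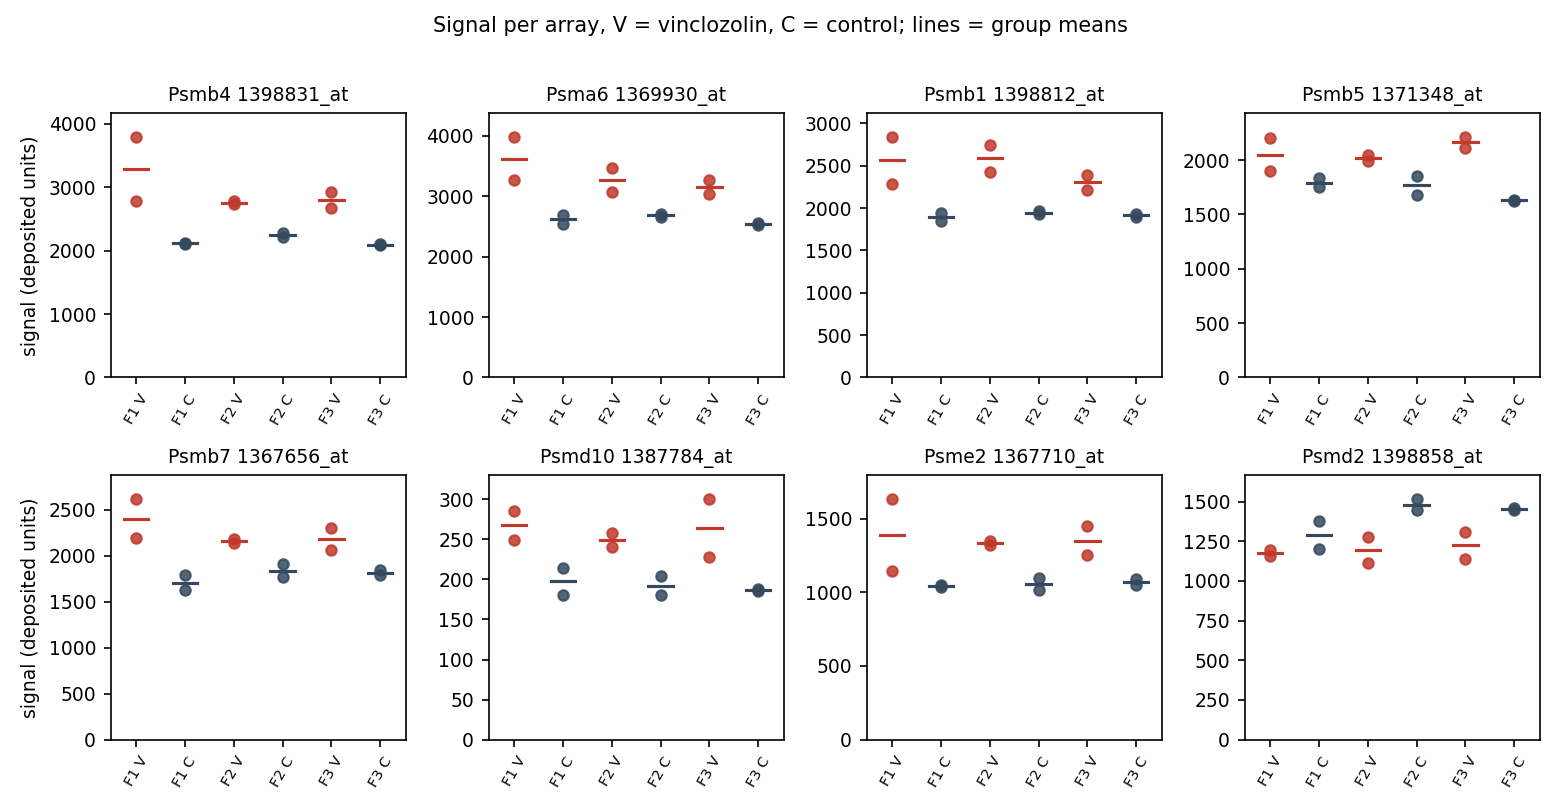
Signal on each array (deposited units, linear axis from 0) of 8 named members in the F1, F2 and F3 vinclozolin (V) and control (C) groups; points are arrays and lines are group means. In the panels of Psmb4, Psma6, Psmb1, Psmb5, Psmb7, Psmd10 and Psme2 every vinclozolin point is above every control point, and in that of Psmd2 the vinclozolin means are below the control means.

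In F1, members of both the core and the regulatory particle rose. The counts were 7 of 13 core probe sets and 6 of 23 base and lid probe sets, beside 9.41% of all called higher. In the mean 14.1% of all probe sets were called higher and 19.2% lower. Of the 13 core probe sets, 10 rose and 0 fell in the mean, with medians of 0.35 in F1, 0.13 in F2 and 0.26 in F3. Of the 23 base and lid probe sets, 7 rose and 2 fell in the mean, and the medians were 0.16 in F1, 0.02 in F2 and 0.04 in F3. The difference between these classes was not tested. After quantile normalization core medians were 0.24 in F1, 0.10 in F2 and 0.17 in F3, beside 0.04, 0.03 and 0.01 for all probe sets. The base and lid median of F2 was -0.04 there. After median centring core medians were 0.47, 0.25 and 0.32, beside 0.10, 0.11 and 0.04 for all probe sets. With the actin ratio as a covariate, core medians were -0.60 in F1, -0.50 in F2 and 0.11 in F3. Array by array, the core median stood 0.13 and 0.55 above the control mean in F1 vinclozolin, 0.23 and 0.21 in F2 vinclozolin and 0.22 and 0.31 in F3 vinclozolin, against -0.03 to 0.06 on control arrays. Without the second F1 vinclozolin array the core median of F1 was 0.12, and that of base and lid was 0.06.

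**Figure D3:**
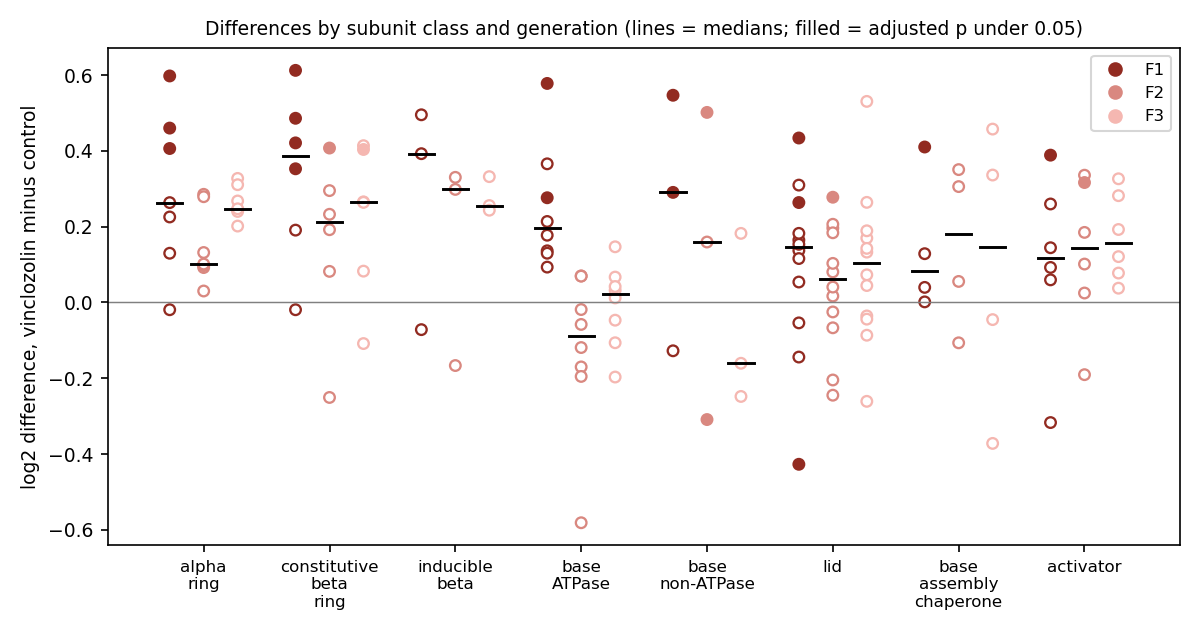
Vinclozolin minus control difference (log2 units) of each tested probe set by subunit class, in F1, F2 and F3 from left to right within a class; bars are class medians and filled points have an adjusted p under 0.05. The medians of the alpha and constitutive beta rings lie above 0 in all 3 generations, with Psmb2 below 0 in each and Psma1 below 0 in F1, and the base ATPase median is 0.20 in F1 and -0.09 in F2.

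**Figure D4:**
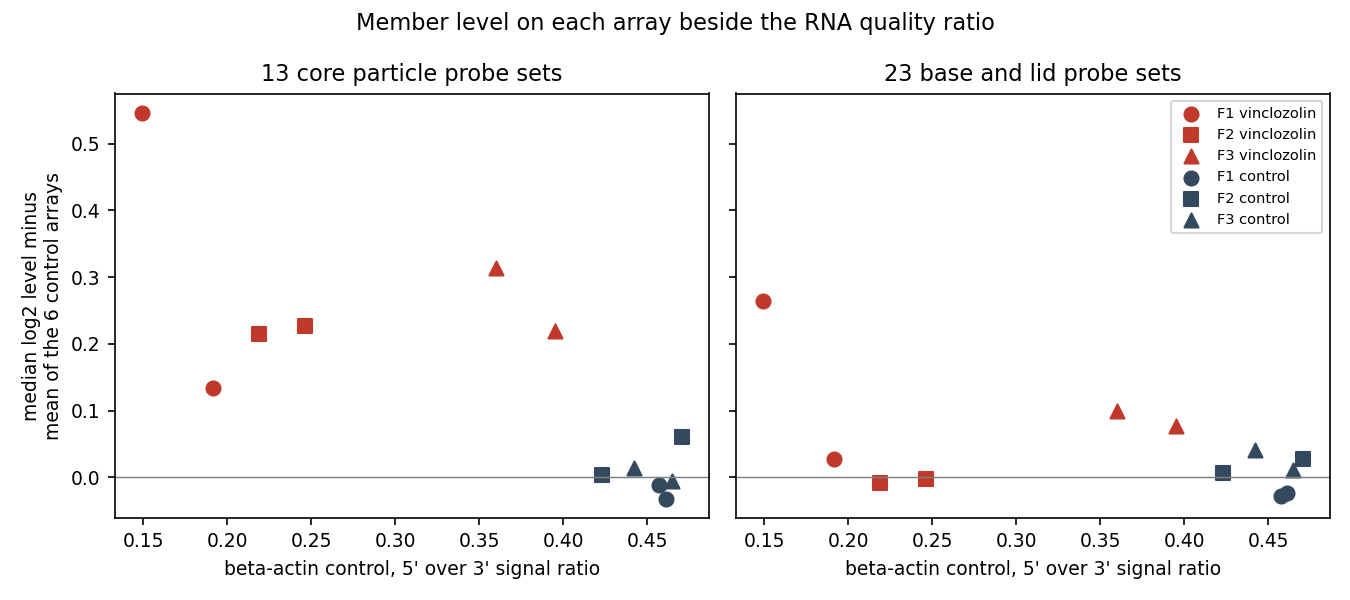
Median log2 level of the 13 core (left) and 23 base and lid (right) probe sets on each array, relative to the mean of the 6 control arrays, against the array's beta-actin 5' over 3' ratio. The second F1 vinclozolin array has the highest core median (0.55) and the lowest ratio (0.149); the F3 vinclozolin arrays have core medians of 0.22 and 0.31 at ratios of 0.395 and 0.360.

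Whether a difference changed with generation was tested in 1 model, and 2 members passed, or 4.08% of 49 beside 2.6% of all probe sets. These were Psmd1 (limma F test, adjusted p = 0.0244), high in F1 and F2 vinclozolin and not in F3, and Psmd14 at 1394082_at (limma F test, adjusted p = 0.0309), low in F1 vinclozolin and high in F3. Both rested on single arrays: 0 members passed without any 1 of the 6 control arrays or without the first F3 vinclozolin array, 1 passed without the second F3 vinclozolin array, and 15 passed without the first F1 vinclozolin array. Psmc6 at 1379850_at, positive in F1 and negative in F2, came next and was not called (limma F test, adjusted p = 0.0655). For the other members a change with generation was not detected with 2 arrays a group, which does not show that the differences were equal. Calls shared between generations were those of Psmb1, Psmd1 and Psmd7, higher in both F1 and F2: 3 of 15 called in F1 and 3 of 4 called in F2. The share of such calls over all probe sets was not computed, so the count is a description only. The generations had separate controls, but their calls used a shared estimate of spread, and the actin ratio was low in both vinclozolin groups. The vinclozolin group means of a probe set spanned 0.03 (Psme2) to 1.12 (Psmc6 1379850_at) log2 units over the generations, and the control group means 0.02 (Psma1) to 0.44 (a dim probe set of Psme1). Among the 3 control groups 0 members differed in limma's F test, beside 0% of all probe sets, and 0 members had an unadjusted p under 0.05.

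**Figure D5:**
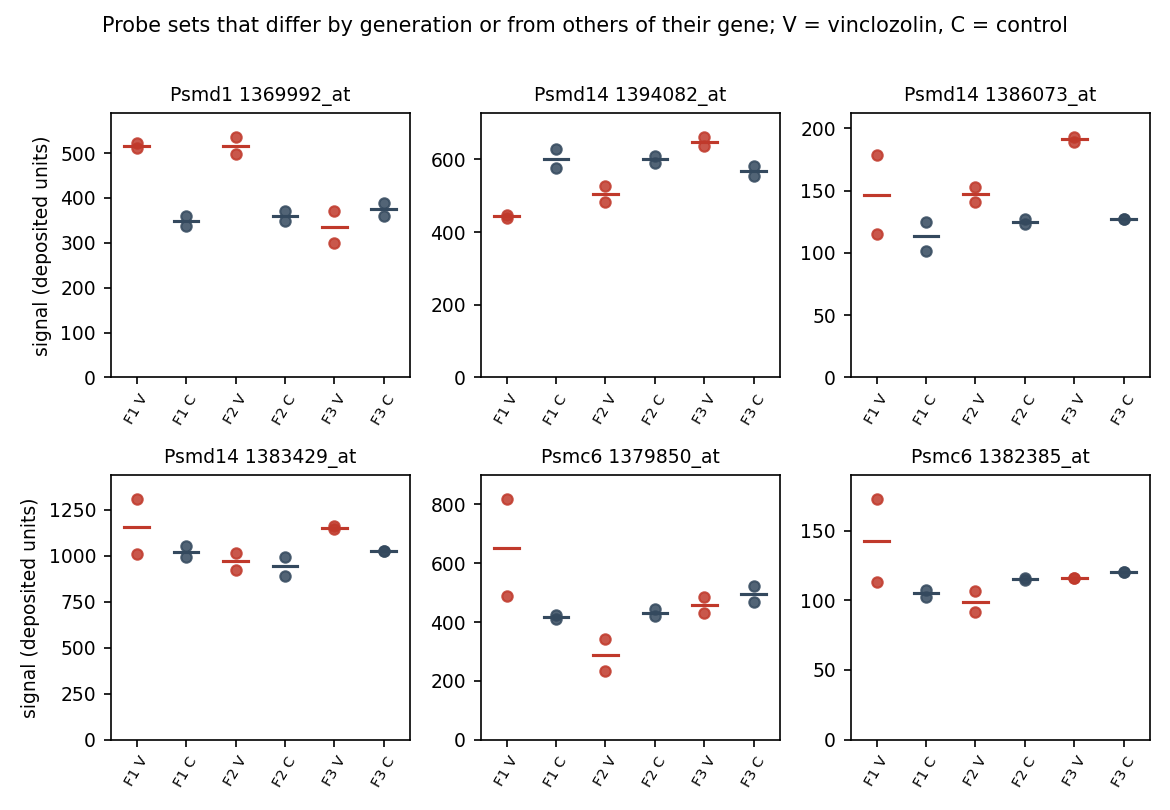
Signal on each array (deposited units, linear axis from 0) for Psmd1, the 3 probe sets of Psmd14 and the 2 probe sets of Psmc6 with the lowest p in the generation test in vinclozolin (V) and control (C) groups; lines are group means. Psmd1 is above control in F1 and F2 vinclozolin only, and Psmd14 1394082_at is below control in F1 and F2 vinclozolin and above it in F3 vinclozolin.

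Of 24 tested probe sets of assembly and regulation genes, 5 rose and 8 fell in F1, where 9.41% and 13.7% of all probe sets were called higher and lower. In F2 0 rose and 5 fell, beside 4.7% and 9.65% of all, and in F3 1 rose and 0 fell, beside 1.05% and 2.06%. In the mean 7 rose and 8 fell, beside 14.1% and 19.2%. Pomp, the maturation factor digested inside each new core particle, had a median of 2426.3 signal units in vinclozolin and 1997.9 in control arrays and rose by 0.46 ± 0.10 in F1. Psmg3, a chaperone of alpha ring assembly, rose by 0.39, while the other chaperones of that step were not called in F1, with 0.13 for Psmg1, -0.06 for Psmg2 and 0.31 for Psmg4. Sem1, a small lid subunit, rose by 0.37 in F1, and Usp14, a deubiquitinase bound to the base, by 0.28. Akirin2, which carries proteasomes into the nucleus, fell by 1.52 in F1 and by 0.92 in F2, with a median of 161.5 in vinclozolin and 295.4 in control arrays. Adrm1, a ubiquitin receptor of the base, fell by 0.89 in F1, and Psmf1, a regulator first found as an inhibitor, by 0.34. Zfand5, which stimulates the proteasome in muscle wasting, fell by 1.96 in F1 at 1375130_at and by 0.47 at 1388868_at, while 1375179_at gave -0.03. The probe sets of Ecpas, a scaffold that tethers proteasomes, disagreed. In F1 it fell by 1.32 at 1393683_at and by 0.65 at 1395353_at, which gave -0.66 and -0.41 in F3, uncalled. At 1378007_at it had 0.11 in F1, uncalled, and rose by 0.49 in F3. The brightest, 1389277_at, was called in neither, with 0.25 in F1 and -0.07 in F3. Nor was 1381178_at, with 0.14 and 0.30.

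Of the 12 probe sets of the Nfe2l1 pathway, 0 rose in any generation, and 2 fell in F1, 2 in F2, 1 in F3 and 6 in the mean, beside 13.7%, 9.65%, 2.06% and 19.2% of all probe sets called lower. Nfe2l1 itself was read by 3 probe sets, with mean differences of 0.08, -0.01 and -0.49, of which the last was called. Keap1, which marks Nfe2l2 for destruction, fell by 0.77 in F1 and by 0.85 in F3 at 1387810_at, while 1370066_at gave 0.14 in F1. Mafg, a partner of both factors on DNA, fell by 0.64 in F1 at 1368874_a_at. Its brighter probe set, 1372024_at, was not called, with -0.11 in F1 and -0.06 in the mean. Of 30 probe sets of ubiquitin and delivery genes, 1 rose and 10 fell in F1 (9.41% and 13.7% of all), 1 rose and 4 fell in F2 (4.7% and 9.65% of all), 0 rose and 1 fell in F3 (1.05% and 2.06% of all), and 4 rose and 16 fell in the mean, beside 14.1% and 19.2% of all. Bag6, a chaperone for misplaced membrane proteins, fell by 1.54 in F1 at 1375323_a_at, with 30.3 to 85.6 signal units in vinclozolin and 129.3 to 159.4 in control arrays. The brighter Bag6 probe set, 1387175_a_at, gave -0.36 in F1, uncalled, and -0.27 in the mean, called. Nploc4, a cofactor of the segregase Vcp, fell by 1.27 in F1 at the dim 1368929_at. Its brighter 1374996_at gave -0.28 in F1, uncalled, and -0.21 in the mean, called. The ubiquitin-conjugating enzyme Ube2g2 fell by 1.27 in F1 at 1380157_at. Its brighter 1371814_at gave -0.20 in F1, uncalled, and -0.26 in the mean, called. Uba6, a ubiquitin-activating enzyme, fell by 0.97 at 1376157_at, while 1379471_at, with 0.25 in F1, rose by 0.27 in the mean. Ube2r2, another conjugating enzyme, rose by 0.75.

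Other interferon-responsive genes were called higher about as often as all probe sets. Of 21 probe sets of antigen presentation and interferon genes, 2 rose in F1, 1 in F2, 0 in F3 and 3 in the mean. The shares of all probe sets called higher were 9.41%, 4.7%, 1.05% and 14.1%. In each of these contrasts 0 of the 21 fell, beside 13.7%, 9.65%, 2.06% and 19.2% of all called lower. Their mean-contrast median was 0.02. B2m, the light chain of class I molecules, rose by 0.48 ± 0.15 in F1 at 1371440_at and had 0.12 at 1367595_s_at. Erap1, which trims peptides, rose by 0.48 in F1 at 1368356_a_at and had -0.02 at 1399161_a_at, and Isg15, a ubiquitin-like modifier, by 0.31 in the mean. Both probe sets of Tap1, the peptide transporter whose promoter window overlaps that of Psmb9 by 44 bases on opposite strands, were too dim to test, at 0.6 to 22.3 in vinclozolin and 1.0 to 17.8 in control arrays. Leukocyte markers, read because immune cells carry the inducible subunits, had summed signals of 649.9 to 866.9 over 17 probe sets in vinclozolin and 745.4 to 830.3 in control arrays. Of the 14 tested, 0 rose in any contrast and 1, Cd68, fell in the mean. There 14.1% of all probe sets were called higher and 19.2% lower. Ptprc, the common leukocyte antigen, read 0.8 to 19.8 in vinclozolin and 1.7 to 17.6 in control arrays.

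Psme2 ran over the 12 arrays most like Atp5f1c and Decr1, genes of mitochondrial energy metabolism, and Exosc7 of the RNA exosome, with Pearson's r of 0.988, 0.977 and 0.976 on log2 values. Psmb9 was nearest to 1372481_at, which has no single symbol, Renbp and Rnf121, with r of 0.874, 0.874 and 0.864. These values describe the same 12 arrays, on which lineage and the actin ratio differ together. The part of either in these correlations was not tested.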

How the data were processed

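Values were the linear signal intensity per probe set that the authors deposited for 12 arrays, from 0 to 9534.9. The trimmed mean was the same on every array (125.03), so they had been scaled before deposit. The summarisation software is not given in the sources used here. Probe sets were named from the platform annotation, which gave 1 symbol to 20826, several to 436 and none to 9780. Controls and the 30% of probe sets with the lowest mean log2 value were left out of the tests. log2(signal + 16) of 21729 probe sets was fitted with 6 group means in limma 3.58.1 (R 4.3.3, eBayes with trend), so differences of dim probe sets are understated. Contrasts were vinclozolin minus control in F1, F2, F3 and their mean, and F tests of generation dependence and of the 3 control groups. P-values were Benjamini-Hochberg adjusted over all tested probe sets, with calls under 0.05. Named in full were, per contrast, up to 6 called members (8 in the mean) with the largest difference each way, F test calls, catalytic, inducible, activator and deubiquitinase genes, and up to 4 called genes per list; others were named as examples. Members and lists were chosen with earlier results of these data known. Settings tried in turn were pseudocounts of 1 and 64, other filters and scalings, an actin covariate, a replicate block, array weights, 1 probe set per gene, fewer arrays and each array left out. Scripts were tested on simulated data.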

Additional observations from a re-analysis of the deposited data

Results flagged for a closer look

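The vinclozolin minus control difference of 2 members depended on generation. Psmd1 differed by 0.55 in F1, 0.50 in F2 and -0.16 in F3, with both vinclozolin arrays above both control arrays in F1 and F2 and an overlap in F3 (limma F test, adjusted p = 0.0244). Psmd14 at probe set 1394082_at differed by -0.43 in F1, -0.24 in F2 and 0.19 in F3, with the groups apart in each generation (limma F test, adjusted p = 0.0309). The other probe sets of Psmd14 were above 0 in all 3 generations. Without any 1 of the 6 control arrays, or without the first F3 vinclozolin array, 0 members passed this test. The cause of either pattern was not tested.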

How the results depend on the processing

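Pseudocounts of 1 and 64 moved none of the counts by over 1.5 times except that 2 members were called higher in F3 at 64. Counts are given as called higher and called lower; those not given were within 1.5 times. With no filter, 0 fell in F2. With the lowest 50% left out, 2 fell in F2 and 2 rose in F3. After quantile normalization 2 fell in F1, 4 rose and 3 fell in F2, and 18 rose and 4 fell in the mean. More of all probe sets were then called higher, and fewer lower, in F1, F2 and the mean. Median centring moved the median of all probe sets to 0.10 in F1 and 0.11 in F2; with that shift, 23 rose in F1, 12 rose and 0 fell in F2, 2 rose in F3, 31 rose and 0 fell in the mean, and 1 depended on generation. With median centring more of all probe sets were also called higher, and fewer lower, in F1, F2, F3 and the mean. The larger member counts there are thus not specific to the members. Array weights gave 8 higher and 2 lower in F2 and 14 higher and 1 lower in F3. More of all probe sets were also called each way in F2 and F3 with these weights. With 1 probe set per gene 0 fell in F1 and F2, 1 fell in the mean, and 1 depended on generation. The 4 arrays of a generation alone gave 3 higher and 0 lower in F1, 10 higher and 3 lower in F2, and 14 higher and 1 lower in F3. Of all probe sets, fewer were called each way in F1 and more in F2 and F3 in those fits. The mean of F2 and F3 only, chosen after seeing the data, called 12 higher and 1 lower, and fewer of all probe sets each way.

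Leaving out 1 array at a time gave 6 to 28 higher and 1 to 2 lower in F1, 0 to 11 and 0 to 4 in F2, 0 to 14 and 0 to 1 in F3, 17 to 28 and 1 to 3 in the mean, 0 to 15 for generation dependence and 0 to 0 for the control groups. In F2 the 4 higher calls became 11 without either F1 vinclozolin array, 2 without any 1 of the F1 and F3 control arrays, 1 without the second F2 control array and 0 without the first F2 control or the second F2 vinclozolin array. In F1, F2 and F3 the number of all probe sets called higher moved too in these fits. A lone array was assumed to vary like the others.

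With the actin ratio as a covariate 0 members were called in F1, F2, F3, the mean and the generation test. The ratio was lower on every vinclozolin array than on every control array, so lineage and ratio cannot be told apart. Called differences that reversed there, none of them called, were in F1 Psmb4 (-0.60), Psma4 (-1.03), Psmc6 (-0.77), Psmb7 (-0.22) and Psma6 (-0.16), in F2 Psmb1 (-0.30), and in the mean Psmb4 (-0.30), Psma4 (-0.62), Psmb1 (-0.29), Psme2 (-0.47), Psma6 (-0.0283), Psmd14 1386073_at (-0.45), Psmb10 (-0.38), Psmb7 (-0.10), Psmb5 (-0.0401) and Psmd4 (-0.25). Of 816 recomputed values of named members, 694 kept direction and side of the threshold, 90 were no longer called, 10 became called and 22 changed sign. Of these 22, 6 were called under neither setting: with the actin covariate the mean differences of Psmb9 (-0.17), Psmd14 1383429_at (-0.22) and Psme4 1387345_at (0.052), the last also at 0.024 with median centring and 0.051 in the mean of F2 and F3 only, and that of Psme1 1394006_at (-0.0057) without the second F2 control array.

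The replicate numbers did not pair the arrays (correlation of same-numbered deviations -0.02 in F1, -0.04 in F2 and 0.03 in F3). With the replicate block, 16 rose and 1 fell in F1, 4 rose and 1 fell in F2, 2 rose in F3, and 22 rose and 2 fell in the mean. Precision is limited by 2 arrays a group, and for Psmb8 and Psmb9 also by dim signal.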
